A study of Mus musculus with 3 samples.

Results

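*Mmp3*-positive *Icam1*-low preadipocytes are *Pdgfra*-expressing stromal cells of inguinal fat that carry *Mmp3* transcripts but few or no *Icam1* transcripts. They were chosen barcode by barcode from counts of unique molecular identifiers (UMIs). A barcode with at least 2000 UMIs and at most 10% mitochondrial UMIs was taken when it held at least 1 UMI of *Pdgfra* and at least 2 of *Mmp3*. It also had to hold at most 1 UMI each of *Icam1*, *Ccn5*, *Gdf10*, *Crabp1* and *Top2a*, at most 2 of *Pi16*, at most 4 of *Adipoq*, and 0 of *Fgf10*, *Epcam* and *Pecam1*. Of 31905 barcodes that passed the depth and mitochondrial limits, 834 (2.61%) met all of these gates and are called members here. They comprised 208 of 10511 barcodes in the wild-type (WT) library, 472 of 12575 in the *Mgp*-KO library and 154 of 8819 in the Pd-KO library.

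The study asked how loss of matrix Gla protein (MGP), an extracellular inhibitor of bone morphogenetic proteins, alters the progenitor cells of white fat. Stromal vascular fraction (SVF) cells of inguinal fat were released with collagenase from mice at 4 weeks of age, sorted by flow cytometry for cells negative for DAPI and CD45, and sequenced on the 10x Genomics 3′ platform, in 1 library per genotype. Each library pooled several mice of both sexes. *Mgp*-KO mice lacked *Mgp* in every cell, whereas Pd-KO mice carried floxed *Mgp* alleles and a *Pdgfra*-Cre transgene, so that deletion followed the *Pdgfra* promoter. The WT library served as the control for both knockouts, because no library of floxed mice without Cre was analysed here. The labels put all 3 libraries in batch 1.

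White adipocytes arise from *Pdgfra*-positive stromal cells. Interstitial progenitors that carry *Dpp4* and *Pi16* can give rise to committed preadipocytes, which are commonly marked by *Icam1* and hold lipoprotein lipase and other genes of lipid uptake before lipid droplets form. *Mmp3* encodes stromelysin-1, a secreted metalloproteinase that cleaves proteoglycans, fibronectin and other matrix proteins. *Icam1* encodes an adhesion molecule that is induced by inflammatory signals through NF-κB.

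With 1 library per genotype there was no replicate error, so no p-value was computed between genotypes. Every interval given is a 95% interval for counting error within a library only, exact Poisson for levels and exact binomial for shares. Libraries also differed in depth. Members held a median of 11090.5 UMIs in the WT library, 5740.5 in the *Mgp*-KO library and 7092.5 in the Pd-KO library, and 2389990, 2882728 and 1103591 UMIs in sum. Sexes were unevenly represented. Cells called female (*Xist* detected, Y-linked genes not) were 38.5% of WT, 70.6% of *Mgp*-KO and 31.8% of Pd-KO members, and 35.1%, 60.6% and 32.5% of all passing barcodes. The count files name software version 4 for the WT library and 7.1.0 for both knockout libraries, so genotype and software version cannot be told apart in either comparison with WT. Between 35 and 40 barcodes were shared by each pair of libraries, 0 of them among members.

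Levels are given as CPM, the UMIs of a gene over all UMIs of a group of cells in a library, scaled to 1000000. *Mgp* (ENSMUSG00000030218) followed the labels in these cells. Its level in members was 585 CPM (555 to 617) in the WT library, with 1399 UMIs, and rested on 2 UMIs in each knockout library, at 0.694 CPM (0.0840 to 2.51) in *Mgp*-KO and 1.81 CPM (0.220 to 6.55) in Pd-KO members. Free RNA of the WT library held 359 CPM of it. Of WT members, 48.6% held an *Mgp* UMI, and 25% after thinning to 2000 UMIs. In endothelial barcodes, which lack *Pdgfra* by their gate, *Mgp* stood at 721 CPM in WT, 0 CPM in *Mgp*-KO and 52.2 CPM in Pd-KO, with a UMI in 34.6% of the WT (19.8% after thinning) and 3.14% of the Pd-KO barcodes. Endothelial cells can express *Mgp* themselves, so the WT share is not a measure of background.

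The cells were proposed with 5 marker genes, of which the gates used *Mmp3* (ENSMUSG00000043613). It stood at 1200 CPM in WT, 1092 CPM in *Mgp*-KO and 815 CPM in Pd-KO members. *Apoe*, the apolipoprotein of remnant particles, stood at 11749, 4334 and 2299 CPM. These levels exceeded those of free RNA, taken from barcodes of 10 to 100 UMIs, in which *Apoe* stood at 6936, 2080 and 449 CPM. *Cpxm1*, a carboxypeptidase-like secreted protein, was found at 653, 639 and 560 CPM in members and at 183, 375 and 246 CPM in free RNA. *Ggt5*, which hydrolyses glutathione and converts leukotriene C4 to D4, stood at 132, 194 and 184 CPM in members and at 22.8, 35.8 and 18.1 CPM in *Pi16*-high progenitors. All 3 of these genes were higher in members than in free RNA, in *Pi16*-high progenitors and in endothelial barcodes of each library. The chemokine gene *Cxcl14* behaved less uniformly, at 133, 52.4 and 188 CPM, and in the *Mgp*-KO library its interval (44.4 to 61.4) overlapped that of free RNA (27.7 to 57.1). Only 10.8% of *Mgp*-KO members held a *Cxcl14* UMI, against 28.4% of WT and 30.5% of Pd-KO members and against 6.13%, 1.57% and 1.39% of WT, *Mgp*-KO and Pd-KO endothelial barcodes. After each barcode was thinned to 2000 UMIs, the shares in members were 11.1%, 5.51% and 15.6%, and in endothelial barcodes, whose median depth before thinning was 6682, 3613 and 4109.5 UMIs, 1.87%, 1.05% and 0.871%.

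**Figure D1:**
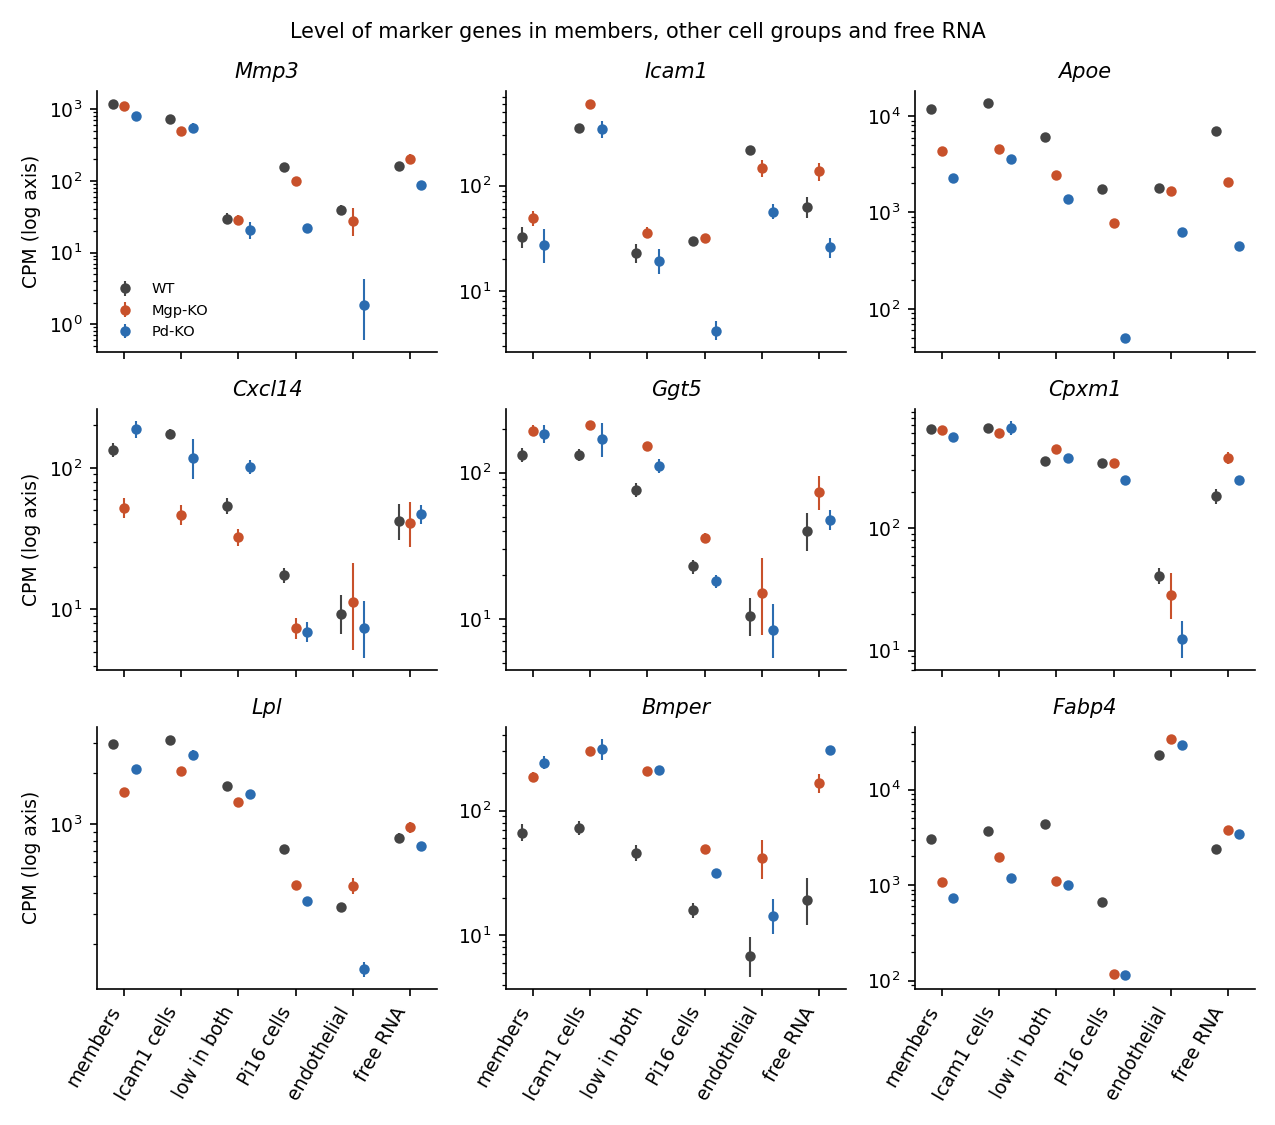
Level in CPM on a log axis of 9 genes in members, *Icam1* cells, cells low in *Mmp3* and *Icam1*, *Pi16*-high progenitors, endothelial barcodes and free RNA, with 1 point per library (WT grey, *Mgp*-KO orange, Pd-KO blue) and 95% Poisson intervals for counting error. For *Apoe*, *Cxcl14*, *Ggt5*, *Cpxm1*, *Lpl*, *Bmper* and *Fabp4*, both members and *Icam1* cells lie above *Pi16*-high progenitors in each library, as with *Apoe* at 11749, 4334 and 2299 CPM in members.

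Committed preadipocyte markers were present in members. All 8 genes of that list (*Icam1*, *Bmper*, *Cd36*, *Apoe*, *Plin2*, *Pparg*, *Fabp4* and *Lpl*) were detected in every library, and their summed level was 18398 CPM in WT, 7545 CPM in *Mgp*-KO and 5795 CPM in Pd-KO members, against 3340, 1501 and 627 CPM in *Pi16*-high progenitors. *Lpl*, the lipoprotein lipase, stood at 2949, 1547 and 2118 CPM. *Fabp4*, the fatty acid binding protein of adipocytes and capillaries, was at 3013, 1078 and 741 CPM, which in both knockout libraries was below free RNA (3816 and 3458 CPM) but above *Pi16*-high progenitors of the same library (118 and 115 CPM). *Bmper*, a secreted modulator of BMP signaling, was at 66.5, 186 and 242 CPM in members. Its level in free RNA was 19.1, 166 and 306 CPM, so in both knockout libraries it did not exceed free RNA beyond counting error. *Pparg*, the master regulator of adipogenesis, was at 43.5, 48.6 and 79.7 CPM, and free RNA held 27.0, 72.1 and 277 CPM of it. Interstitial progenitor markers (*Dpp4*, *Pi16*, *Cd55*, *Wnt2*, *Anxa3* and *Sema3c*) summed to 337, 527 and 407 CPM in members and to 5028, 5066 and 6926 CPM in *Pi16*-high progenitors. The gates held *Pi16* itself to at most 2 UMIs in members and at least 3 in *Pi16*-high progenitors, which fixed part of this gap. *Bmper* and *Pparg* were likewise lower in *Pi16*-high progenitors, at 15.9, 49.5 and 31.6 CPM and at 11.9, 8.26 and 9.10 CPM. *Apoe*, *Lpl*, *Fabp4*, *Bmper* and *Pparg* thus stood higher in members than in *Pi16*-high progenitors of each library, while *Fabp4*, *Bmper* and *Pparg* did not exceed free RNA in the knockout libraries.

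Markers of most other cell types were low in members. Endothelial markers (5 genes) summed to 19.7, 4.86 and 10.9 CPM in WT, *Mgp*-KO and Pd-KO members, led by *Gpihbp1* in WT and *Kdr* in both knockouts, with *Pecam1* at 0 by the gate. Leukocyte markers (4 genes) summed to 4.60, 2.43 and 1.81 CPM, led by *Cd74*, with *Ptprc* and *Cd52* at 0 in all 3 libraries. Epithelial markers (5 genes) summed to 19.7, 3.47 and 0.906 CPM, Schwann cell markers (4 genes) to 13.4, 14.2 and 11.8 CPM, mesothelial markers (3 genes) to 0.418, 0.347 and 0 CPM, and red blood cell markers (2 genes) to 31.4, 2.43 and 7.25 CPM. Adipocyte markers (6 genes) summed to 116 CPM in WT members, led by *Car3* at 83.3 CPM, to 22.5 CPM in *Mgp*-KO and to 63.4 CPM in Pd-KO members, where *Plin1* and *Cidec* were at 0. Cycling markers (3 genes) summed to 20.1, 7.63 and 11.8 CPM. The gates themselves limited *Top2a* in the cycling list, *Epcam* in the epithelial list and *Adipoq* in the adipocyte list, so they set part of these sums. A pair of lists stood higher. One was that of smooth muscle and pericyte markers (*Myh11*, *Acta2*, *Rgs5*, *Cspg4* and *Notch3*), which summed to 438 CPM in WT, 35.0 CPM in *Mgp*-KO and 77.9 CPM in Pd-KO members, led by *Acta2* and with no gene at 0, and to 868, 330 and 420 CPM in free RNA. The other was the list of markers of Areg cells, a stromal population known to restrain adipogenesis (*F3*, *Gdf10*, *Fmo2*, *Vit* and *Clec11a*), which summed to 221 CPM in WT, 383 CPM in *Mgp*-KO and 536 CPM in Pd-KO members, led by *Fmo2* and with no gene at 0. It summed to 141, 204 and 361 CPM in *Icam1* cells, 88.4, 79.6 and 57.1 CPM in *Pi16*-high progenitors and 258, 252 and 183 CPM in free RNA. The WT level thus did not exceed free RNA, but the gate on *Gdf10* limited its part of the sum in members. *F3* UMIs were found in 28.8%, 22.7% and 37.0% of members against 1.87%, 1.57% and 0.871% of endothelial barcodes, and *Gdf10* UMIs, limited to 1 per cell by the gate, in 32.7%, 26.1% and 31.2% of members against 10.7%, 2.62% and 1.74%. After thinning to 2000 UMIs the *F3* shares were 11.1%, 11.4% and 22.1% in members and 0.511%, 0.524% and 0.523% in endothelial barcodes, and the *Gdf10* shares 8.65%, 11.4% and 10.4% against 3.75%, 1.05% and 1.05%. In CPM, *F3* stood at 66.5, 68.3 and 146 in members and 124, 72.1 and 56.5 in free RNA. *Gdf10* stood at 28.5, 42.7 and 43.5 in members, held down by its gate, and 45.2, 73.4 and 52.0 in free RNA. In UMIs the gates had not seen, *Gdf10* stood at 101, 98.4 and 184 CPM in barcodes gated as members. *Icam1* cells gated the same way held 53.1, 55.5 and 98.1 CPM. These barcodes were gated on part of their UMIs, as described below, and were not the same set as the members.

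The gates fixed part of what the members look like. *Mmp3* had a median of 7 UMIs per member in WT, 5 in *Mgp*-KO and 4 in Pd-KO, and a maximum of 184, 88 and 39. *Icam1* was at 0 UMIs in 130 WT, 330 *Mgp*-KO and 124 Pd-KO members and at 1 UMI in the rest. Just inside the *Mmp3* gate lay 44, 103 and 48 members with exactly 2 UMIs, whose *Apoe* level was 7039, 3785 and 1362 CPM. Just outside lay 119, 192 and 58 barcodes with exactly 1 UMI, with *Apoe* at 7775, 2906 and 2241 CPM. On the *Icam1* side, 78, 142 and 30 members held 1 UMI and 51, 71 and 11 barcodes with *Mmp3* held 2, and *Apoe* stood at 14217, 4794 and 1906 CPM inside against 15596, 4597 and 3021 CPM outside. With the gates applied in order, the *Fgf10* gate removed 66.9% of the barcodes that reached it in WT, 42.9% in *Mgp*-KO and 61.6% in Pd-KO. Levels free of this choice were obtained by gating on a random part of each barcode's UMIs and measuring in the others. The barcodes that met the gates in this way (411 WT, 478 *Mgp*-KO and 185 Pd-KO) were not the same set as the 834 members, since gates on fewer UMIs admit other cells. *Mmp3* then stood at 1348, 1195 and 1057 CPM in them, 755, 527 and 343 CPM in *Icam1* cells and 88.4, 105 and 85.8 CPM in cells low in both genes. *Icam1* stood at 108, 147 and 49.8 CPM in the cells gated as members and at 298, 542 and 196 CPM in *Icam1* cells, a fold difference of 2.75 (2.40 to 3.16), 3.69 (3.19 to 4.28) and 3.94 (2.38 to 6.51). Cells gated as members in this way held *Icam1* in the UMIs the gate had not seen, at 1.46 times (1.24 to 1.72), 1.54 times (1.32 to 1.79) and 1.43 times (0.952 to 2.11) the level of cells low in both.

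The share of members among passing barcodes was 1.98% (1.72 to 2.26) in WT, 3.75% (3.43 to 4.10) in *Mgp*-KO and 1.75% (1.48 to 2.04) in Pd-KO. The *Mgp*-KO share was thus 1.77 percentage points above WT (1.35 to 2.20), and the Pd-KO share was 0.23 points below it, with an interval from -0.61 to 0.15. The first difference turned when depth was made equal by thinning, and not in the other settings that bear on depth. When every barcode was thinned to 2000 UMIs before gating, the shares were 4.09% in WT (3.72 to 4.49), 3.26% in *Mgp*-KO (2.96 to 3.59) and 1.73% in Pd-KO (1.47 to 2.03), which put the *Mgp*-KO share below WT. With the *Mmp3* and *Icam1* gates set relative to each cell's UMI total and the other gates kept, the shares were 2.35%, 3.94% and 1.80%, and among barcodes with at least 4000 UMIs, not thinned, they were 2.00%, 3.64% and 1.85%, both with *Mgp*-KO above WT. A gate of 0 *Fgf10* UMIs or at most 1 *Icam1* UMI admits fewer cells when cells hold more UMIs, and thinned WT members were largely other barcodes. Of the WT members, 28.4% remained members after thinning, and of the thinned ones 13.7% had been members before. The corresponding shares were 34.7% and 40% in *Mgp*-KO and 18.2% and 18.3% in Pd-KO. Within cells called female the shares before thinning were 2.17%, 4.37% and 1.71%, and within cells called male 2.09%, 2.33% and 1.44%. The Pd-KO share was the lowest of the 3 libraries in every setting but one, the gate of 0 *Icam1* UMIs, under which WT was lowest at 1.24% against 1.41% in Pd-KO and 2.62% in *Mgp*-KO.

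**Figure D2:**
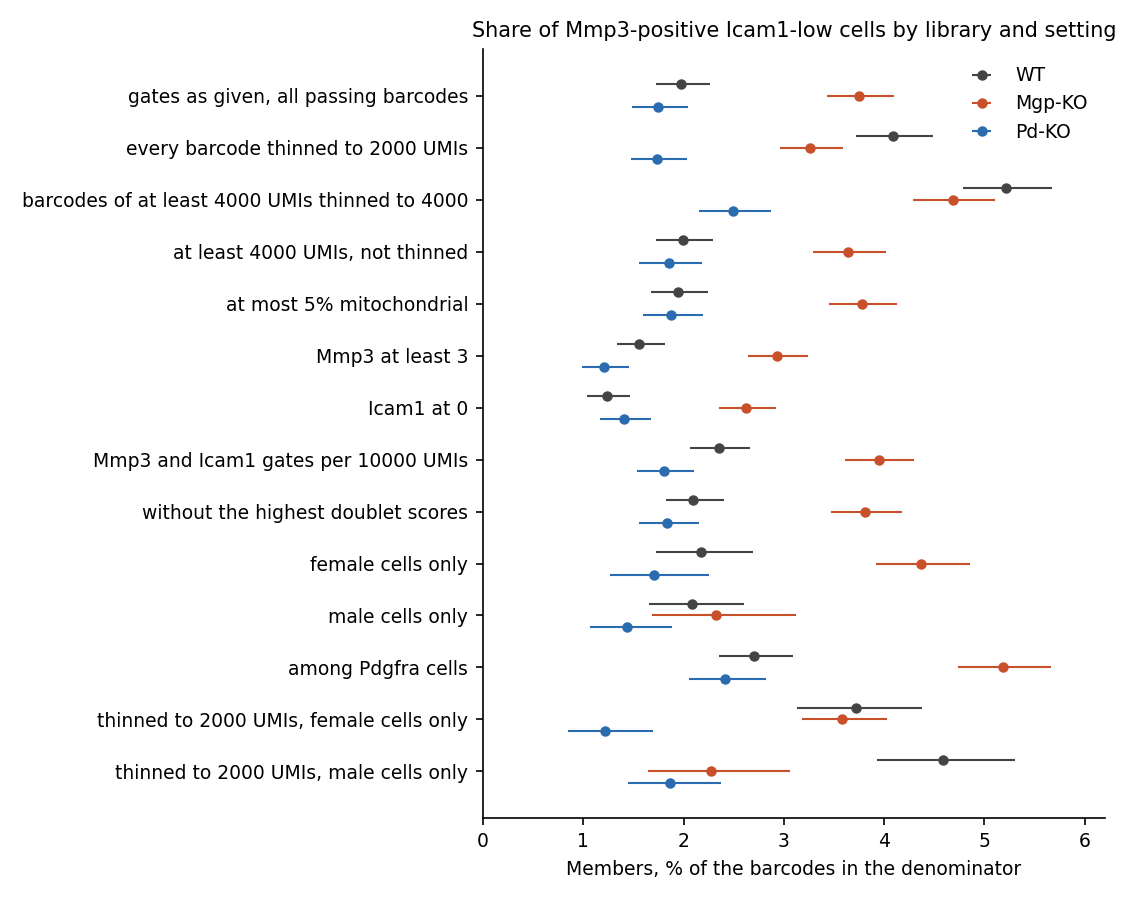
Members as a percentage of the barcodes in the denominator (x axis) in the 3 libraries under 14 settings, with exact binomial 95% intervals for counting error. The *Mgp*-KO point lies to the right of WT with the gates as given (3.75% against 1.98%) and to the left of it after thinning to 2000 UMIs (3.26% against 4.09%), while the Pd-KO point lies left of the *Mgp*-KO point throughout.

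*Icam1* cells, which met the same gates but held at least 2 *Icam1* UMIs at any *Mmp3* level, numbered 276 in WT, 475 in *Mgp*-KO and 45 in Pd-KO, that is 2.63%, 3.78% and 0.510% of passing barcodes. Members therefore made up 43.0% (38.5 to 47.5) of members and *Icam1* cells together in WT, 49.8% (46.6 to 53.1) in *Mgp*-KO and 77.4% (70.9 to 83.0) in Pd-KO. After thinning to 2000 UMIs these shares were 81.1%, 70.7% and 94.4%, and after thinning barcodes of at least 4000 UMIs to 4000 they were 68.2%, 57.0% and 86.5%, so that Pd-KO stayed highest while the order of WT and *Mgp*-KO changed. *Icam1* was itself lower in the Pd-KO library outside these gates, at 4.24 CPM in *Pi16*-high progenitors against 29.7 CPM in WT and 32.1 CPM in *Mgp*-KO.

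Apart from *Icam1* and *Mmp3*, members and *Icam1* cells held much the same transcripts. This comparison is a description, since a gate on 1 gene selects cells for every gene that moves with it. Of 2335 genes with at least 50 CPM in either group of every library, 0 (0.0%) were at least 2-fold higher and 0 (0.0%) at least 2-fold lower in members in all 3 libraries. Within single libraries, 3 genes were 2-fold higher and 4 lower in WT, 1 and 10 in *Mgp*-KO, and 11 and 31 in Pd-KO, where the *Icam1* cells were fewest. Values are log2 ratios of summed CPM, set to 0 at the median gene.

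The genes furthest above *Icam1* cells in all 3 libraries included secreted matrix and growth regulators. *Pi15*, a peptidase inhibitor, was higher by 0.66, 0.73 and 1.77 log2 units in WT, *Mgp*-KO and Pd-KO. *Timp1*, which inhibits *Mmp3* and other metalloproteinases, was higher by 1.16 (0.96 to 1.36), 0.66 (0.42 to 0.91) and 0.90 (0.33 to 1.503), at 228, 116 and 169 CPM in members against 98.96, 71.2 and 89.6 CPM in *Icam1* cells. *Sfrp2*, a secreted Wnt modulator, was higher by 1.15, 0.73 and 0.64. Matrix genes followed, with *Fn1* (fibronectin) higher by 0.63, 0.52 and 0.71, *Mfap5*, a microfibril protein, by 0.45, 0.41 and 0.36, *Col14a1* by 0.35, 0.56 and 0.62, and *Col16a1* by 0.37, 0.36 and 0.45. The cell cycle inhibitor gene *Cdkn1c*, the transcription factor gene *Osr1*, *Zfp260* and the protease inhibitor gene *Cst3* were also higher, by between 0.35 and 0.98 across libraries. *Fmo2*, a monooxygenase gene that also marks Areg cells, was higher by 1.16 in WT (0.84 to 1.49) and 1.24 in *Mgp*-KO (1.04 to 1.44), and by 0.46 in Pd-KO with an interval that reached 0 (-0.01 to 0.97), as those of *Zfp260* and *Col16a1* did in Pd-KO. *Pi15*, *Sfrp2*, *Fn1*, *Mfap5* and *Col14a1* were all higher still in *Pi16*-high progenitors, where *Sfrp2* stood at 949, 918 and 977 CPM against 155, 392 and 246 CPM in members, and 20 interstitial progenitor genes, 9 of them tested, had a median ratio of 0.33 over *Icam1* cells.

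The genes furthest below *Icam1* cells included inflammatory and immediate early genes. The monocyte chemokine gene *Ccl2* was at 306, 440 and 154 CPM in members against 532, 1219 and 311 CPM in *Icam1* cells, a log2 ratio of -0.84 (-0.96 to -0.72) in WT, -1.51 (-1.60 to -1.42) in *Mgp*-KO and -1.03 (-1.39 to -0.66) in Pd-KO. Its neighbor in function, *Ccl7*, stood at -0.91, -0.98 and -1.03. *Irf1*, an interferon-responsive transcription factor gene, stood at -0.90, -1.13 and -1.32, and *Nfkbia*, the NF-κB inhibitor gene that NF-κB induces, at -0.84, -0.76 and -1.09. *Icam1* is a target of the same factor. The stress and early response genes *Gadd45b*, *Zfp36*, *Myc*, *Socs3*, *Cdkn1a*, *Dnajb1* and *Atf3* lay between -0.66 and -1.42 in single libraries, and the long gene *Thsd7a* at -0.69, -0.65 and -0.94. Of the 22 immediate early and stress genes listed, 19 were tested with a median ratio of -0.62, of the 24 chemokines and cytokines 11 with a median of -0.48, and of the 22 interferon response genes 9 with a median of -0.53, against a median close to 0 over all 2335 genes. None of them reached 2-fold in all 3 libraries. Fibrillar and fibril-associated matrix genes had a median of 0.20 over 27 genes tested, and lipid uptake genes of -0.18 over 12, so *Apoe* at -0.27, -0.10 and -0.66 was no higher in members than in *Icam1* cells.

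**Figure D3:**
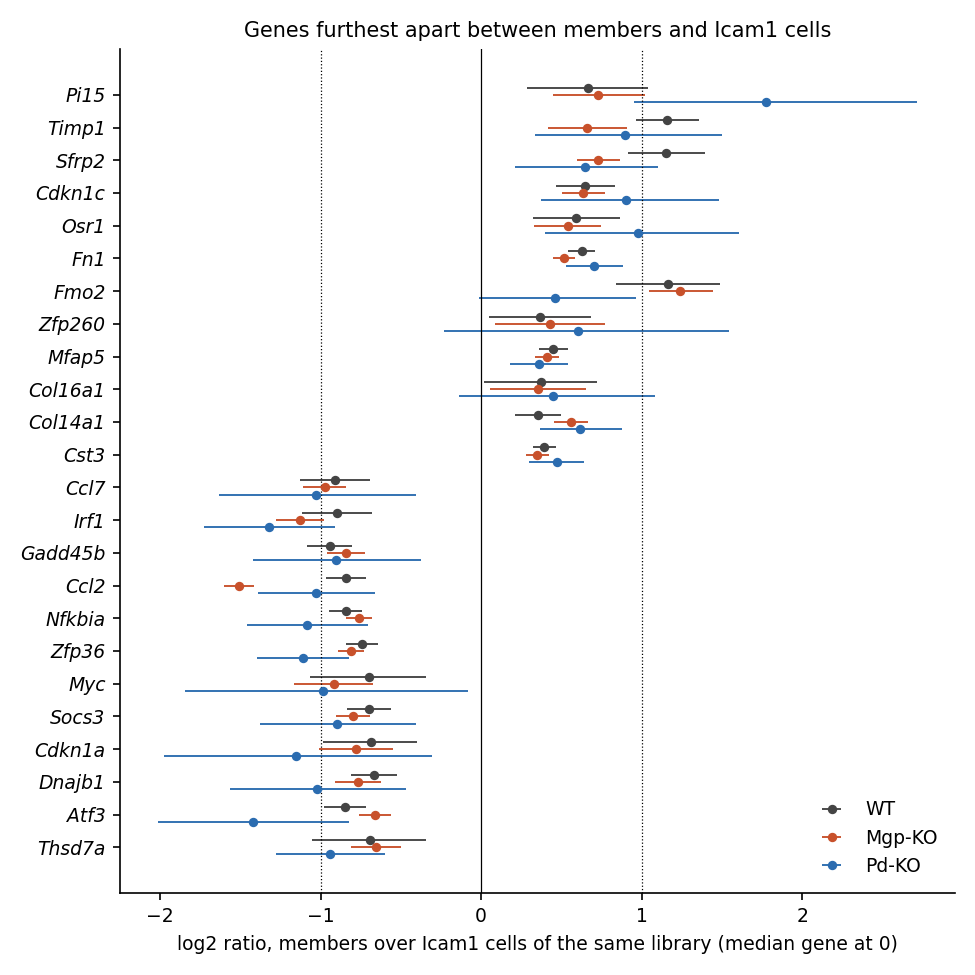
Log2 ratio of members over *Icam1* cells of the same library (x axis) for the 12 genes furthest above and the 12 furthest below *Icam1* cells in all 3 libraries, with 95% conditional binomial intervals for counting error and dotted lines at 2-fold. The genes of each set lie on 1 side of 0 in each library, with *Ccl2* in *Mgp*-KO at -1.51 and *Pi15* in Pd-KO at 1.77, and none lies beyond 2-fold in all 3.

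Cells that met the other gates but were low in both *Mmp3* and *Icam1* (449 WT, 1137 *Mgp*-KO and 476 Pd-KO barcodes) differed more. Of 2488 genes tested, 1 (0.0402%) was at least 2-fold higher in members in all 3 libraries and 12 (0.482%) were lower. Apart from *Mmp3*, which the gates set apart and which is not counted here, the gene that was higher was *Fmo2*. It stood at 84.9, 228 and 183 CPM in members against 41.9, 114 and 72.9 CPM. Among those that were lower were 5 genes of contractile cells: *Acta2* at 291, 21.9 and 42.6 CPM against 1766, 136 and 192 CPM, *Tagln* at 159, 19.1 and 43.5 CPM against 1469, 108 and 161 CPM, *Tpm2*, *Mylk* and *Csrp1*. They were grouped here after their values were seen, and of them only *Acta2* is on the list of smooth muscle and pericyte markers. *Palld*, *Ednra*, *Entpd1*, *Crispld1*, *Frem1* and *Nxn* were lower as well. *Ednra*, an endothelin receptor gene, stood at 27.6, 13.9 and 16.3 CPM in members against 91.4, 93.1 and 79.3 CPM. Smooth muscle and pericyte markers summed to 2717 CPM in the WT cells low in both, against 438 CPM in WT members, and their part in this difference was not tested.

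Members were not uniform among themselves. In counts thinned to 2000 UMIs, the ratio of variance to mean, which is near 1 for a gene that varies by counting alone, had a median of 1.09, 1.09 and 1.08 over 2068 genes in WT, *Mgp*-KO and Pd-KO members. Ranked by the smallest of their 3 values, the leading genes were *Malat1*, *Gsn*, *Apoe*, *Col3a1*, *Sparc*, *Col1a2*, *Col1a1*, *Cst3*, *Fabp4*, *Postn*, *C3* and *Fn1*. *Malat1*, a nuclear RNA, reached 79.0, 21.2 and 19.6, and the list of nuclear transcripts moved from 0.446% to 3.38% of UMIs between the quartiles of WT members. *Gsn*, the actin-severing protein gelsolin, had ratios of 18.2, 19.6 and 14.2. *Apoe* had 22.3, 12.7 and 10.8, and the tenth of members with most *Apoe* held 32.0%, 38.3% and 47.1% of its UMIs. The tenth with most *Fabp4* held 40.4%, 62.2% and 60.8% of the *Fabp4* UMIs, and the tenth with most *C3*, the central complement component, held 60%, 49.3% and 52.0%. *Mmp3* itself, on which the cells were gated, had ratios of 3.92, 2.76 and 2.46.

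When the members of each library were ranked by *Mmp3* per UMI and divided into 3 equal groups, *Mmp3* went from 213 to 2926 CPM in WT, from 364 to 2385 CPM in *Mgp*-KO and from 267 to 1810 CPM in Pd-KO. *Apoe* increased over the same groups from 8604 through 13472 to 14163 CPM in WT, from 3621 through 4639 to 4997 CPM in *Mgp*-KO and from 1642 through 2332 to 3228 CPM in Pd-KO. *Dcn*, which encodes decorin, also increased in steps in each library, from 8458 to 10616 CPM, from 10936 to 13576 CPM and from 10902 to 13311 CPM. *Timp1* was highest in the lowest *Mmp3* group of each library, at 337, 165 and 256 CPM against 171, 69.2 and 99.7 CPM in the highest. *Fmo2* was highest in the top group in WT (209 against 31.6 CPM in the lowest) and in *Mgp*-KO (414 against 117 CPM), but not in Pd-KO, where it was 186 against 164 CPM with 206 CPM between. The gate of at least 2 *Mmp3* UMIs keeps shallow cells out of the lowest group, which had a median of 12210, 6811 and 8462.5 UMIs against 10589, 5049 and 5745 UMIs in the top group, and the part of depth in these values was not tested. *Lpl* (2953 and 2818 CPM in WT, 1604 and 1579 CPM in *Mgp*-KO, 1920 and 2199 CPM in Pd-KO in the lowest and the top group) showed no common direction.

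Between genotypes, the largest differences in members followed gene length. Genes with at least 50 CPM in a compared library were tested, and a gene was called when it differed at least 2-fold after the median gene was set to 0, which shifted ratios by 0.13 for *Mgp*-KO and 0.10 for Pd-KO over WT. In *Mgp*-KO, 617 of 3383 genes (18.2%) were higher and 106 (3.13%) lower than in WT. In Pd-KO, 532 of 3371 genes (15.8%) were higher and 109 (3.23%) lower. Over both knockouts, which share the WT library, 395 of 3135 genes (12.6%) were higher and 37 (1.18%) lower. When genes were divided into 5 equal groups by genomic span, the median log2 ratio of *Mgp*-KO over WT went from -0.40 in the group with a median span of 3.74 kb to 1.36 in that of 181 kb, and that of Pd-KO over WT from -0.38 to 1.31. Between the knockouts, whose files name the same software version, the groups lay between -0.02 and 0.03.

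**Figure D4:**
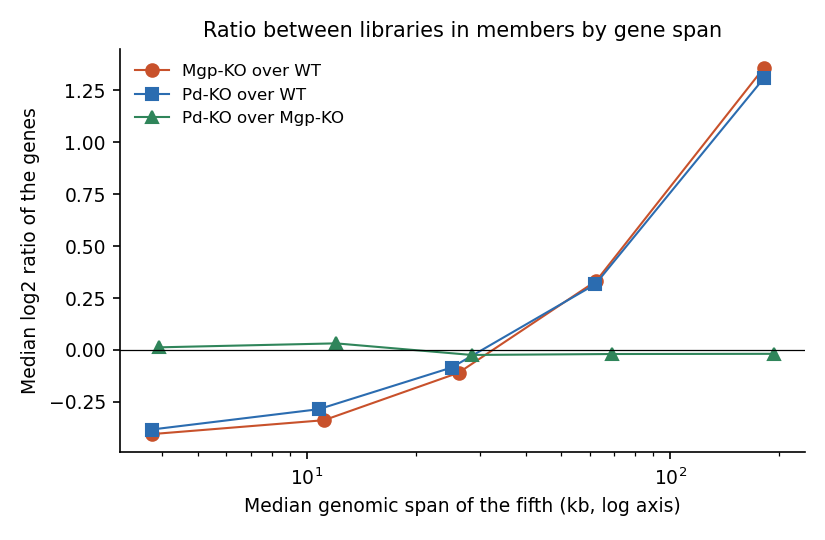
Median log2 ratio between libraries (y axis) of the genes tested in members, in 5 equal groups by genomic span (x axis, kb, log scale), for *Mgp*-KO over WT (orange circles), Pd-KO over WT (blue squares) and Pd-KO over *Mgp*-KO (green triangles). The comparisons with WT climb with span from -0.40 and -0.38 to 1.36 and 1.31, and the comparison between the knockouts lies between -0.02 and 0.03.

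Even the genes highest in both knockouts that were still called after this trend was taken off were long. *March3*, *Naaladl2*, *B3galt1*, *Prkg1*, *Pard3b*, *Camk1d*, *Lrmda*, *Magi2*, *Pde4d*, *Ust* and *Zfpm2*, which span between 164 and 1504 kb, were higher by between 4.24 and 6.204 log2 units in both. The same genes were higher in *Icam1* cells, and *Naaladl2* for instance stood at 10.7, 410 and 571 CPM there against 8.79, 456 and 410 CPM in members. Of the 395 genes called higher in both knockouts, 76 were also called after the trend over span was taken off, and of the 37 called lower, 22. The part of software version and intron counting in these ratios was not tested.

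Some lipid handling genes were lower in both knockouts. Of 16 genes of lipid uptake and lipoproteins, 12 were tested in each comparison with WT, and 5 of them (*Apoe*, *Cd36*, *Fabp4*, *Fabp5* and *Angptl4*) were called lower in both, with 0 called higher, against 1.18% of all genes. The list's median log2 ratio was -0.96 in *Mgp*-KO and -0.81 in Pd-KO, against 0 over all genes. These medians were taken before the trend over span was taken off. The group of genes with the shortest span had medians of -0.40 and -0.38. *Apoe* had a log2 ratio of -1.57 (-1.60 to -1.54) in *Mgp*-KO and -2.46 (-2.51 to -2.40) in Pd-KO, and remained beyond 2-fold in both after the trend over span was taken off. *Fabp4* had -1.61 and -2.13, *Angptl4*, a secreted inhibitor of lipoprotein lipase, -1.86 and -1.47, and *Cd36*, the fatty acid translocase, -1.23 and -1.13. In *Mgp*-KO these values differed by sex. Within cells called female the *Mgp*-KO ratio was -1.71 for *Apoe*, -1.85 for *Fabp4* and -2.04 for *Angptl4*, and within cells called male (77 WT and 43 *Mgp*-KO members) it was -0.75, -0.82 and -0.98, so that 0 lipid genes were called lower in both knockouts among male cells. The difference between the sexes was not tested. *Lpl* was called lower in *Mgp*-KO (-1.06) but not in Pd-KO (-0.58), and *Plin2*, the lipid droplet coat protein, was at -0.85 and -0.96. *Lrp1* and *Abca1*, by contrast, had values of 0.33 and 0.94 in *Mgp*-KO and 0.72 and 0.83 in Pd-KO. *Apoc1*, the neighbor of *Apoe* in its gene cluster, went from 349 CPM in WT to 77.4 CPM in *Mgp*-KO and 10.9 CPM in Pd-KO members. The same direction was seen outside members. The summed list stood at 19776, 8975 and 6937 CPM in members, 22621, 10603 and 9409 CPM in *Icam1* cells and 4579, 2567 and 1705 CPM in *Pi16*-high progenitors. Free RNA held 14953, 8378 and 6633 CPM of it, and its part in the difference was not tested. *Fabp5* in members (131, 66.6 and 41.7 CPM) was below free RNA in each library (695, 218 and 159 CPM), as was *Cd36* in both knockouts (95.4 and 101 CPM against 177 and 622 CPM), while both genes were higher in members than in *Pi16*-high progenitors of the same library. Endothelial barcodes went the other way, at 30410, 42417 and 37432 CPM, led by *Fabp4*.

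A few contractile genes, grouped here after their values were seen, were also among those called lower in both knockouts. *Acta2*, *Myh11*, *Tagln* and *Tpm2* stood at 291, 66.5, 159 and 133 CPM in WT members and at 21.9, 4.51, 19.1 and 24.6 CPM in *Mgp*-KO members, with 42.6, 16.3, 43.5 and 41.7 CPM in Pd-KO members. They are markers of smooth muscle and myofibroblasts. All 4 were higher in free RNA than in members of the same library, with *Acta2* at 527, 259 and 148 CPM in free RNA. *Acta2* UMIs came from 97 of 208 WT, 14 of 472 *Mgp*-KO and 8 of 154 Pd-KO members and *Myh11* UMIs from 21, 7 and 9, so the levels of both rested on few cells, except for *Acta2* in WT. *Ccl19*, a lymphoid chemokine gene, had log2 ratios of -1.66 and -1.83, and *Car3*, an adipocyte carbonic anhydrase gene, of -3.79 and -1.62, though free RNA held more *Car3* than members did in each library (132, 416 and 104 CPM). The *Ccl19* ratio in *Mgp*-KO was called in female cells (-1.91) but not in male cells (-0.01) or after thinning (-0.97), and the *Car3* ratio in Pd-KO in male cells (-5.24) but not in female cells (-0.56). *Myh11* was not called in either knockout after thinning, at -0.16 and -0.45, nor in male Pd-KO cells, at -0.61. *AY036118* and *Lars2* had ratios of -4.43 and -3.27 in *Mgp*-KO and of -2.83 and -1.99 in Pd-KO, but both hold stretches that match ribosomal RNA, so their counts are uncertain.

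The list with most calls between the knockouts was that of immediate early and stress genes. Its immediate early genes are switched on within minutes of a stimulus, and its stress genes include chaperone and metallothionein genes. In members, 66 of 3473 genes (1.9%) were at least 2-fold higher in Pd-KO than in *Mgp*-KO and 150 (4.32%) lower. Of 22 immediate early and stress genes, 21 were tested and 19 were lower in Pd-KO, with a median log2 ratio of -1.45. Against WT, 16 of the 21 were lower in Pd-KO (median -1.41) and 1, *Hspa1b*, in *Mgp*-KO (median 0.06), against 3.23% and 3.13% of all genes. *Jun* stood at 2796 CPM in WT, 4331 CPM in *Mgp*-KO and 1373 CPM in Pd-KO members, and *Fos* at 2085, 3377 and 1272 CPM. Both encode subunits of the transcription factor AP-1. *Atf3* differed most, at 281, 450 and 50.7 CPM, a log2 ratio of -3.13 (-3.54 to -2.74) between the knockouts. The metallothionein gene *Mt1* stood at 1487, 1686 and 442 CPM and the chaperone gene *Hspa1a* at 311, 204 and 46.2 CPM. The summed list was 18235, 23267 and 8845 CPM in members. In *Pi16*-high progenitors it was 7954, 11989 and 3961 CPM, in endothelial barcodes 12449, 14396 and 5739 CPM and in free RNA 26498, 21034 and 6188 CPM, so Pd-KO was lowest in each of these groups as well. Genes of this list respond to tissue dissociation, and its part in the difference was not tested.

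**Figure D5:**
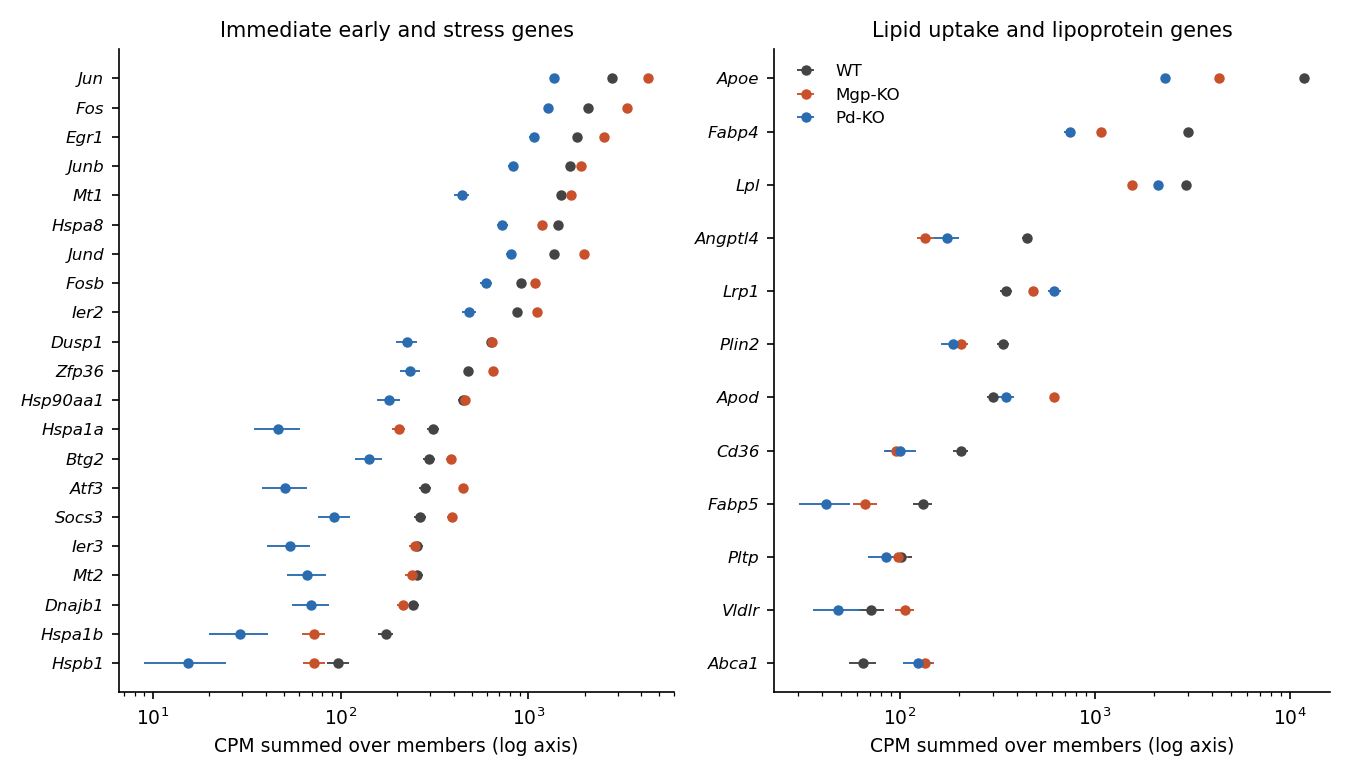
Level in members (CPM on a log axis, x axis) of the tested immediate early and stress genes (left) and lipid uptake and lipoprotein genes (right), with 1 point per library and 95% Poisson intervals for counting error. Pd-KO is the lowest library for each gene on the left, and on the right WT is the highest for *Apoe*, *Fabp4*, *Lpl*, *Angptl4*, *Plin2*, *Cd36* and *Fabp5*, and not for *Lrp1* or *Abca1*.

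Other genes were also lower in Pd-KO than in *Mgp*-KO members. *Ptx3*, a pattern recognition protein that binds hyaluronan matrix, was at 201 CPM in WT and 261 CPM in *Mgp*-KO but 26.3 CPM in Pd-KO members, a log2 ratio of -3.29 (-3.88 to -2.76) between the knockouts. *Has1*, a hyaluronan synthase gene, was at 29.7, 213 and 21.7 CPM, and *Zbtb16*, a glucocorticoid-responsive transcription factor gene, at 43.9, 324 and 33.5 CPM, so that here *Mgp*-KO stood apart from the other libraries. *Chchd10* was at 24.7, 62.4 and 8.16 CPM. Of 24 chemokine and cytokine genes, 12 were tested between the knockouts, of which *Cxcl1*, *Cxcl10*, *Cxcl13*, *Ccl2* and *Ccl7* were lower in Pd-KO and *Cxcl14* higher, against 4.32% and 1.9% of all genes. *Cxcl1* was at 716, 596 and 177 CPM and *Cxcl13*, a B cell chemokine gene, at 75.7, 320 and 67.1 CPM. *Sntg1* had 12 UMIs in WT, 399 in *Mgp*-KO and 0 in Pd-KO members, where 0 UMIs allow up to 2.72 CPM (3 counts of the total), and it was at 175 CPM in *Mgp*-KO *Pi16*-high progenitors against 0.848 CPM in Pd-KO.

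Genes higher in Pd-KO than in *Mgp*-KO members were led by *Ecrg4*, a secreted peptide precursor gene, at 37.2, 6.59 and 123 CPM in WT, *Mgp*-KO and Pd-KO, with a log2 ratio of 4.24 (3.54 to 5.02). *Ndufa4l2*, *Clec11a*, *Meox2*, *Adamtsl3* and *Cxcl14* were higher by between 1.86 and 2.51. *Cxcl14* was at 2.41 within female cells and 0.29 within male cells. For *Ecrg4*, *Ndufa4l2* and *Cxcl14* the WT level (37.2, 64.9 and 133 CPM) lay between those of the knockouts. Of 30 fibrillar and fibril-associated matrix genes, 28 were tested and 4 were higher in Pd-KO (*Col5a1*, *Col5a3*, *Col6a2* and *Col6a3*, the last at 1718, 955 and 2233 CPM) and 1 lower (*Col12a1*), against 1.9% and 4.32% of all genes. The most abundant members of the list were below 2-fold, *Col1a1* at 11497, 10678 and 20650 CPM with a log2 ratio of 0.97, *Col1a2* with 0.65 and *Col3a1* with 0.73. The list summed to 99126, 90867 and 134968 CPM in members. Free RNA held 35098, 61035 and 111603 CPM of it and was highest in Pd-KO too, and its part was not tested. In basement membrane genes, 2 of 14 tested were higher in Pd-KO, against the same 1.9%, *Col15a1* at 744, 251 and 716 CPM and *Col4a4*.

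Regulators of the adipocyte fate were called in both directions. Of 14 adipogenic transcription factors, 8 were tested in both comparisons with WT and 1, *Ebf1*, an early B cell factor needed for adipogenesis, was called higher in both, at 573, 1475 and 1496 CPM, against 12.6% of all genes. The list's median log2 ratio was 0.43 in *Mgp*-KO, with 8 of 8 tested genes above 0, and -0.42 in Pd-KO, with 4 of 9 above 0. In Pd-KO alone against WT, 3 of the 9 were called higher (*Ebf1*, *Ebf2* and *Nr3c1*), against 15.8% of all genes, and 1 lower (*Cebpd*), against 3.23%. *Cebpd* was at 415, 639 and 144 CPM and *Cebpb* at 248, 392 and 186 CPM, both of them called lower in Pd-KO than in *Mgp*-KO. They are early response genes of adipogenesis. Of 14 genes that restrain adipogenesis, 7 were tested in both comparisons, with *Zfp521* higher (20.5, 126 and 169 CPM) and the Notch target *Hes1* lower (183, 87.1 and 65.2 CPM) in both, against 12.6% and 1.18% of all genes. The median of that list was 0.49 in *Mgp*-KO, with 6 of 7 tested genes above 0, and 0.72 in Pd-KO, with 6 of 9 above 0, where *Zfp521* was called higher and *Klf2* and *Hes1* lower. Both *Ebf1* and *Zfp521* are long genes. After the trend over span was taken off, *Ebf1* stood at -1.26 and -1.11, so its direction turned, and *Zfp521* at 0.52 and 1.08.

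In the lists of growth factor pathways, calls in both knockouts are to be set against 12.6% of all genes called higher in both and 1.18% called lower. In the TGFβ list of 20 genes, 4 of 11 tested were higher in *Mgp*-KO than in WT (*Tgfb2*, *Tgfbr1*, *Tgfbr3* and *Ltbp1*), against 18.2% of all genes, and 4 of 10 in Pd-KO (*Tgfbr3*, *Ltbp1*, *Smad3* and *Tgfbi*), against 15.8%. The list's median log2 ratio was 0.63 and 0.87. List medians and calls in single knockouts against WT, here and in the paragraphs above, were taken before the trend over span was taken off. The part of that trend in them was not tested. *Tgfbr3* and *Ltbp1* were called higher in both knockouts out of 9 tested, at 99.2, 566 and 397 CPM and at 61.9, 168 and 174 CPM. In the BMP list of 29 genes, 11 were tested in both and *Bmper* was called higher in both. *Mgp* was called lower in both, which its deletion set in advance. The BMP target *Id1* was at 52.7, 55.5 and 13.6 CPM, below free RNA (112, 63.3 and 70.3 CPM). Of 31 Wnt genes, 9 were tested and *Tcf7l1* was called higher in both. In the complement list of 19 genes, 11 were tested and *C2*, *C4b* and *Cfb* were among those called higher in Pd-KO than in WT, against 15.8% of all genes. *C3* was at 564, 808 and 1123 CPM and below 2-fold. Of 23 metalloproteinases and inhibitors, 15 were tested in both knockouts, and *Mmp14*, *Adamts12* and *Adamtsl1* were called higher. *Mmp14*, which activates *Mmp2*, was at 320, 706 and 725 CPM, while *Mmp2* was at 686, 1203 and 1002 CPM. Among the genes of all lists called higher in both knockouts, *Mmp14* (1.27 and 1.28) was the only one still called in both after the trend over span was taken off. Carboxypeptidases and glutathione enzymes, the families of the markers *Cpxm1* and *Ggt5*, had 0 of 7 and 0 of 12 tested genes called in both. The IGF axis had *Igf1r* called higher in both out of 10 tested, interferon response genes 0 of 11, and interstitial progenitor genes 0 of 10, with *Dpp4* at 30.1, 117 and 58.9 CPM called higher in *Mgp*-KO, where free RNA held 171 CPM of it. Surface genes of progenitors had *Ghr*, the growth hormone receptor gene, called higher in both out of 14 tested, and the 5 nuclear transcripts tested had 0 called in both, with *Malat1* at 20995, 15531 and 7697 CPM.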

How the data were processed

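The authors deposited 1 unfiltered matrix of UMI counts per library, with 32285 genes and 184102026 (WT), 93212243 (*Mgp*-KO) and 83942865 (Pd-KO) UMIs. The submitters' processing notes name Cell Ranger 6.1.1 and GRCm39, the study's methods name that version with default parameters and mm10, and the file headers name software versions 4 and 7.1.0. For the versions in the headers, whether intronic reads were counted is not given in the sources used here. No column of values went unmapped.

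Barcodes with at least 2000 UMIs and at most 10% mitochondrial UMIs were kept (10511, 12575 and 8819). Counts of member cells were summed per library and scaled to 1000000 (CPM). Ratios were centred on the median of genes with at least 50 CPM in a compared library and at least 100 UMIs, and called at 2-fold. Intervals cover counting error only. Gene spans came from GENCODE M21 (GRCm38) and were known for 100% of tested genes. Doublets were kept in, and as an alternative the 8% of barcodes with the highest score against simulated doublets (30 components, 50 neighbours) were removed. Sex was called from *Xist* and Y-linked UMIs. Scripts were tested on simulated data.

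The members and gene lists were chosen with earlier results of these data known. Named genes were the 12 furthest from *Icam1* cells in all 3 libraries and the 12 called in both knockouts, also after a running median over span was taken off, with the largest smaller ratio, each way, the 6 furthest each way between the knockouts, the 12 most variable, and list members of highest level. Other list genes were named because they were called or differed, after their values were seen. A few genes that these rules would name are not reported here. Python 3.11.15, numpy 2.4.6, scipy 1.17.1, pandas 2.3.3, scikit-learn 1.9.0, matplotlib 3.10.9, R 4.3.3 and edgeR 4.0.16 (TMM factors only) were used.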

Additional observations from a re-analysis of the deposited data

How the results depend on the processing

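The share of members in *Mgp*-KO minus WT, 1.77 percentage points, turned to -0.831 with every barcode thinned to 2000 UMIs and to -0.533 with deeper barcodes thinned to 4000, and was 0.237 in male cells and 2.49 among *Pdgfra* cells. In thinned female and male cells, 2 settings chosen after seeing the data, it was -0.132 and -2.31. The share in Pd-KO minus WT, -0.233, was -2.36 and -2.72 under the same thinning, -0.652 in male cells, -2.49 and -2.72 in thinned female and male cells, and 0.169 with *Icam1* at 0. Of genes called by genotype, plain CPM left 62 lower in *Mgp*-KO and TMM 171 lower in Pd-KO. A minimum of 20 CPM admits more genes to the comparison. With it, 1001 were higher and 217 lower in *Mgp*-KO, 845 and 247 in Pd-KO, 687 and 66 in both, and 114 and 248 between the knockouts. With no minimum, 178 were lower in *Mgp*-KO. After thinning, 341 and 52 were called in *Mgp*-KO, 323 were higher in Pd-KO, and 246 and 15 were called in both. With the trend over span taken off, 233 were higher in *Mgp*-KO, 172 in Pd-KO, and 80 and 60 were higher and lower in both. Female cells gave 189 lower in Pd-KO and 249 lower between the knockouts. Male cells gave 297 and 59 in *Mgp*-KO, 239 and 19 in both, and 0 lipid genes lower in both. Against *Icam1* cells, 2 genes were lower with cells weighted equally or without the highest doublet scores (*Ccl19* and *Birc3*), 1 lower at 20 CPM (*Ccl19*), 1 higher and 1 lower after thinning (*2610001J05Rik* and *Ripk1*), and 1 higher and 1 lower against *Icam1* cells with *Mmp3* (*Fmo2* and *Ccl7*). The number of genes tested was not the same in every setting, so these counts of called genes cannot be compared as shares. The cause of the changes was not tested. Of the other values, 106 comparisons and 681 values of named genes kept their direction and size, and 157 values of named genes moved beyond their counting interval. No paired analysis was possible because each genotype had 1 library and the labels give no replicate numbers.

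With 1 library per genotype, variation between mice is unmeasured. Depth differed between libraries, and which cells met gates on 1 or 2 UMIs changed when barcodes were thinned. The female share differed between libraries, and software version was confounded with genotype in both comparisons with WT.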
